A study of Mus musculus with 30 samples.

Results

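Lungs of mice kept in 10% oxygen for 4 d were compared with lungs of mice kept in 10% oxygen for 10 h, both taken as whole organs and both profiled as total RNA. The members were chosen by title: the 6 arrays titled Hyp4d and the 6 titled Hyp10h, 12 of the 30 arrays of the series. Per the labels, the animals breathed 10% oxygen in a chamber to induce pulmonary hypertension and were killed at the end of the stated time. Each group held 2 samples, 1a and 1b, and each sample was run on 1 Affymetrix MG-U74 version 2 array of each of 3 types, A, B and C, which carry different probe sets. Strain, sex, age and pooling were not given in the labels, and whether 1a and 1b are different animals is not stated. The p-values therefore reflect the scatter of these samples alone, and that scatter may be technical. The sample numbering places the 10 h and 4 d arrays of a type in 1 run of deposits, whereas the 2 d and 6 d arrays of the same series stand in another. A group titled Norm is also in the series. Its description mentions a rejection, so what these samples are is uncertain, and its arrays serve here only for the estimate of spread and as values beside the others. By the titles, no sample outside low oxygen enters the difference. The comparison thus asks which lung transcripts differed between an early and a later time in low oxygen, and not which differed from normal air. The label of the A array 4 d 1a is in doubt, as described below.

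Low oxygen constricts small pulmonary arteries within minutes and, when it lasts for days, thickens their walls and loads the right ventricle. In the cell, hypoxia-inducible factors (HIF) escape prolyl hydroxylation in low oxygen and raise genes of glycolysis, angiogenesis and mitophagy through a short DNA element. The first hours in a chamber are also known as a time of stress hormone release, immediate early transcription and altered feeding, while proliferation of vascular cells and matrix deposition belong to the following days.

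The values are the deposited linear intensities, which were already on a common scale: the trimmed means of the 29 arrays in the fit lay between 800.2 and 800.4. A floor was placed at the 40th percentile of each array type: 236.05 for A, 297.36 for B, 200.93 for C. Where both arrays of a group sat at it, the level is known only as an upper bound. Changes are log2 differences, 4 d minus 10 h, with the standard error (SE) of the limma fit, and intensities are compared only within a probe set. Several defining markers of lung were bright on all 4 samples: Sftpb of type 2 cells, Ager of type 1 cells, Scgb1a1 of club cells and Cdh5 of endothelium lay at or above the 95.4th percentile of their array. Others were less bright. On their dimmest array Pecam1 of endothelium lay at the 51.9th percentile and Pdpn of type 1 cells at the 67.0th. Scgb3a2 of club cells lay at the 73.9th and Foxj1 of ciliated cells at the 75.8th. Sftpd (122 to 332) and Tekt1 of ciliated cells (159 to 245) lay near the floor.

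A pair of libraries stood apart. The A array labelled 4 d 1a went against its label. Over the 1303 genes measured on both A and B arrays, deviations were taken from the mean of the compared arrays of a type, the array itself included. Those of the A array labelled 4 d 1a correlated at -0.01 and -0.02 with those of the B arrays of 4 d 1a and 1b. The A array of 4 d 1b correlated at 0.13 and 0.10 with them, and an A array labelled Norm 1b at 0.16 and 0.11. Over 1322 genes shared with the C arrays the array labelled 4 d 1a gave -0.03 and 0.04, and the one labelled Norm 1b gave 0.15 and 0.11. The A arrays of 4 d were also the least alike pair of that type that share a group, with a Spearman correlation of 0.901. By this measure 4 d 1b stood further from the other A arrays. Its highest Spearman correlation with any A array in the fit was 0.913, against 0.957 for the array labelled 4 d 1a. Values from the A arrays are given with both 4 d arrays, since the label is in doubt. Results that rest on the A arrays are also given without the array labelled 4 d 1a. That fit leaves 4 d 1b as the only A array of 4 d. A call on type A in it rests on 4 d 1b alone, with a spread taken from the other groups. The sample 10 h 1a was compressed at its bright end: its brightest A probe set read 14170, against 21992 on 10 h 1b, and of the 100 brightest A probe sets 97 were lower on 10 h 1a than on 10 h 1b, with a median log2 difference of -0.59. The actin control's 3' signal divided by its 5' signal ran from 0.0714 to 0.636 on the 12 arrays of 10 h and 4 d, and that of the Gapdh control from 0.845 to 1.52. On the 2 d arrays these ratios were 3.68 to 4.97 and 3.48 to 4.52, and on the 6 d arrays 0.493 to 1.68 and 1.45 to 1.71.

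Between 10 h and 4 d, 6 of 25801 probe sets passed an adjusted p of 0.05, or 0.0233% of those tested. A protein phosphatase subunit (Ppp1ca) and skeletal muscle actin (Acta1) rose, which makes 0.00775% higher at 4 d. The low-oxygen target Ankrd37, the neurotrophin receptor gene Ntrk2, the activin antagonist follistatin (Fst) and the glutathione transferase gene Mgst3 fell, which makes 0.0155% lower at 4 d. The test was limma's moderated test with Benjamini-Hochberg adjustment over the 3 array types together, with 2 samples a group. An unadjusted p under 0.05 was reached by 2085 probe sets, and 5 of the 13039 genes passed through the probe set that represents them, or 0.0383%.

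Ppp1ca, a catalytic subunit of protein phosphatase 1, read 1611 and 1689.5 on the C arrays of 10 h and 8406 and 8869.9 on those of 4 d. The groups lay far apart and the arrays within each agreed, so the change was 2.39 ± 0.16 (SE, n = 2 and 2, limma adjusted p = 0.00184), a 5.23-fold rise. A second probe set for the gene, on the B arrays, gave 0.07 ± 0.17, so the rise was seen by 1 of its 2 probe sets. Ntrk2, the receptor of brain-derived neurotrophic factor, read 3846 and 3347 at 10 h and 554 and 407 at 4 d on 1 of its B probe sets, a fall of -2.92 ± 0.20 (limma adjusted p = 0.00184). Its 3 other probe sets gave -0.19, -0.64 and -0.92 and did not pass, and the gene's representative is one of these. Ankrd37, an ankyrin repeat gene that HIF-1 is known to induce, read 2503 and 2597 at 10 h and 323 and 238 at 4 d, a fall of -3.04 ± 0.22 (limma adjusted p = 0.00199). Its 4 d values lay close to the B floor of 297.36, while both 10 h arrays were well above it.

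Fst, the secreted antagonist of activins, read 969 and 1079 at 10 h and 241 and 49.8 at 4 d on the A arrays, and its change was -2.10 ± 0.19 (limma adjusted p = 0.0181). Both 4 d arrays sat at or just above the floor, and the dimmer B probe set of Fst gave -0.23 ± 0.15. The call rests on the floor: with a floor at the 20th percentile the limma adjusted p was 0.22. Mgst3, a membrane-bound glutathione transferase, read 1639 and 1858 at 10 h and 605 and 522 at 4 d, a change of -1.64 ± 0.17 (limma adjusted p = 0.0386). Acta1, the actin of skeletal muscle fibres, read 80.1 and 26.8 at 10 h, both under the floor, and 1699.6 and 3941 at 4 d. Its rise was at least 3.45 on the log2 scale (limma adjusted p = 0.0386), and the 4 d arrays disagreed by more than 2-fold. With only the 10 h and 4 d arrays in the fit none of these 6 passed (limma adjusted p = 0.484 for each, 2091 probe sets with an unadjusted p under 0.05), since 2 arrays against 2 then had to supply their own spread. Without 4 d 1b, Ntrk2 alone passed (limma adjusted p = 0.0406) and the others of these 6 lay between 0.0532 and 0.0831. Without the A array of 4 d 1b alone, Acta1 (0.0566), Mgst3 (0.0683) and Fst (0.0523) missed. Without 10 h 1a, Acta1 (0.126) and Mgst3 (0.0788) missed, and without 10 h 1b these (0.152 and 0.126) and Fst (0.0546) missed. Mgst3 and Acta1 also missed without a trend of the variance (0.0561 for each), Mgst3 with median scaling (0.05003), and Acta1 without the filter on low values (0.157). Without the A array labelled 4 d 1a, the changes were -2.11 for Fst, -1.74 for Mgst3 and at least 4.06 for Acta1. On type A these rest on 4 d 1b alone. The spread in that fit comes from the other groups, and it is small where values sit at the floor. The number of probe sets that pass in it is therefore no measure of support.

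**Figure D1:**
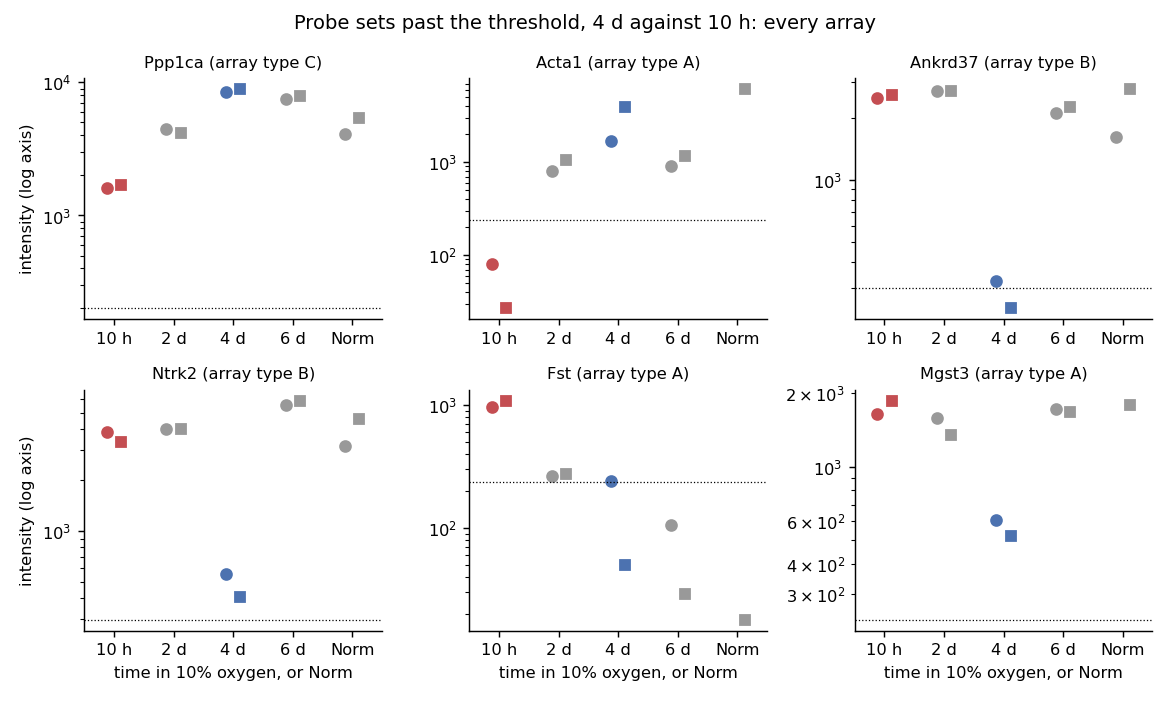
Deposited intensity (log axis) on every array for the 6 probe sets that passed, by time in 10% oxygen or Norm, with circles for 1a, squares for 1b and a dotted line at the floor of the array type. Ppp1ca and Acta1 are higher at 4 d (blue) than at 10 h (red), and the other 4 probe sets are lower at 4 d.

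The other times of the series show which side of each difference stood apart. For Ankrd37, Ntrk2 and Mgst3 it was 4 d: Ankrd37 read 2711 and 2692 at 2 d and 2111 and 2270.0 at 6 d, close to its 10 h values. Acta1 read 801 and 1059.6 at 2 d and 915 and 1160.4 at 6 d, so 10 h lay below and 4 d above every array of these times. The Norm array of type A in the fit, labelled Norm 1b, was higher still (6076). Its label is in doubt: it correlated at 0.16 and 0.11 with the B arrays of 4 d and at 0.02 with that of Norm 1b. Fst was already at 265 and 276 at 2 d and under the floor at 6 d, so that its 10 h level was the high one. Ppp1ca lay between the times at 2 d (4466 and 4203) and near its 4 d level at 6 d (7514 and 7862).

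Since fewer than 5 genes passed in each direction, the 10 genes of smallest p each way are named here, those not yet given as genes that did not pass with all arrays. Higher at 4 d were Ankrd63 (295 and 190.1 at 10 h, 1944 and 2005 at 4 d, adjusted p = 0.054), the monocarboxylate transporter family gene Slc16a9 (1885 and 1984, then 4554 and 7701, adjusted p = 0.0615) and Lyrm4, which serves iron-sulphur cluster assembly (1181 and 426, then 4385 and 4051, adjusted p = 0.0681). Sox11, a transcription factor of development, read 1907 and 2636 at 10 h and 7439 and 5433 at 4 d on the C arrays (1.5 ± 0.22, adjusted p = 0.0681). A B probe set of Sox11 gave 1.11 ± 0.15, while the A probe set gave 0.16 ± 0.71. Met, the receptor of hepatocyte growth factor, was at 1036 and 1211 and then at 2720.4 and 2538 (1.23 ± 0.19, adjusted p = 0.0865). No 10 h array reached the lower 4 d array in any of these genes, which were chosen by their small p. Over all genes, groups did not overlap and lay higher at 4 d in 18.0%. The remaining genes on the higher side were Ldb3 of the muscle Z-disc, the B cell gene Fcrla and fast troponin C, Tnnc2, with adjusted p values from 0.0865 to 0.155.

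Lower at 4 d, and short of the threshold with all arrays, were Cebpd, Hspa1b, AU040972, Sphk1, Bhlhe40, Ifit1 and Mt1, with adjusted p values from 0.054 to 0.0823. Cebpd, a transcription factor of the acute phase, was among the brightest of them: it read 10477 and 11603 at 10 h and 4510.2 and 3705 at 4 d (-1.43 ± 0.16, adjusted p = 0.054). Sphk1, which makes sphingosine 1-phosphate, read 818 and 749 at 10 h and 155 and 287 at 4 d (-1.59 ± 0.20, adjusted p = 0.0615). AU040972 read 7663 and 5848, then 2642 and 2242 (-1.46 ± 0.19, adjusted p = 0.054). None of these pairs overlapped between the times, and they too were chosen by their small p. Over all genes 19.0% lay apart and lower at 4 d. Without the A array labelled 4 d 1a, 109 of 13039 genes passed (0.836%), 68 higher (0.522%) and 41 lower (0.314%). Among them were Cebpd (-1.57) and Sphk1 (-1.45). Ankrd63, Slc16a9, Lyrm4, Sox11, Met, Ldb3 and Fcrla were also counted, but they are on the B and C arrays, which that array does not touch. Their changes and SE were the same in both fits, and only the adjustment over the array types together changed. On the A arrays this leaves 4 d 1b alone, assumed to vary like the other groups, and 93 of the 109 genes are on that type.

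Interferon-response genes were lower at 4 d than at 10 h as a group. These are the genes that type I and type II interferons induce, among them the antiviral Ifit proteins, the ubiquitin-like modifier Isg15, the regulator Irf7 and the Oas sensors of double-stranded RNA. Of 47 listed genes 38 were tested, of which 34 were lower and 4 higher, with a median change of -0.48, against a median of 0.00 and 48.7% lower over all genes. None passed the threshold with all arrays. In 9 members both 4 d arrays lay below both 10 h arrays with a mean difference of 2-fold or more, against 1.16% of all genes: Irf7, Stat2, Isg15, Ifit1, Ifit3, Usp18, Oas2, Oasl1 and Oasl2. The groups did not overlap, lower at 4 d, in 28 of the 38, against 19.0% of all genes.

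Ifit1 read 1403 and 1168 at 10 h and 308 and 317 at 4 d on the A arrays (-2.03 ± 0.27, limma adjusted p = 0.0681). Irf7, the master regulator of type I interferon genes, read 1298 and 1101, then 296 and 425 (-1.75 ± 0.29, limma adjusted p = 0.145). Usp18, which removes Isg15 from proteins, read 2174 and 1518, then 683 and 672 (-1.42 ± 0.24, limma adjusted p = 0.145). In these 3 genes each 4 d array was under 0.5 times either 10 h array. Ifit3 read 3068 and 2821 at 10 h and 1229 and 532 at 4 d, so the 4 d arrays differed more than 2-fold from each other (-1.86 ± 0.36, limma adjusted p = 0.181). Ifit3 passed when that pair was reduced to 4 d 1b (-2.47, limma adjusted p = 0.0337). Of the members 2-fold apart, the others were chosen for this after their values were seen. Isg15 read 2209 and 1601, then 839.8 and 394. On the B arrays Stat2, a subunit of the factor that interferon receptors activate, read 3313 and 2339, then 959 and 1001. Oas2 read 2517 and 2739.6, then 1083 and 1061, and Oasl2 read 8238 and 6558, then 2508 and 3188. The B and C arrays thus showed the same side as the A arrays: 11 of their 13 members were lower, with a median of -0.64, and the A members had a median of -0.42 with 4 d 1a alone and -0.50 with 4 d 1b alone. Leaving out any 1 of the 4 samples gave medians from -0.50 to -0.45.

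Promoters of 3 of these genes are shown because they carry the element that interferon-activated factors bind, read here as the letters GAAA, any 2 bases and GAAA again, and searched on both strands, with overlapping matches kept. Each is the 250 bases before the gene start from RefSeq on GRCm38.p6, 5′ to 3′ on the gene's strand, with matches in capitals, which read TTTC, 2 bases, TTTC where the match is on the other strand. Ifit1 lies at chr19:34640639-34640888 on the plus strand, Ifit3 at chr19:34583279-34583528 on the plus strand, and Isg15 at chr4:156200819-156201068 on the minus strand, where 3 matches overlap.
Ifit1: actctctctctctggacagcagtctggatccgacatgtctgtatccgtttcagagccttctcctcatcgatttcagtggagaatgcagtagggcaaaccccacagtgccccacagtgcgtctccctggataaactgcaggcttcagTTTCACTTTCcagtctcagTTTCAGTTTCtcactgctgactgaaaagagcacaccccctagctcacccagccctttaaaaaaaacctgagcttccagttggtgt
Ifit3: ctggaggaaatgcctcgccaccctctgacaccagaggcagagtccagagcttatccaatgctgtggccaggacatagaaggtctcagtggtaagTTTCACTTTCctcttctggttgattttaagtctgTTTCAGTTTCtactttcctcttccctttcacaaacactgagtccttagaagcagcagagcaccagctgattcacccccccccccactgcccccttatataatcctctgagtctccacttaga
Isg15: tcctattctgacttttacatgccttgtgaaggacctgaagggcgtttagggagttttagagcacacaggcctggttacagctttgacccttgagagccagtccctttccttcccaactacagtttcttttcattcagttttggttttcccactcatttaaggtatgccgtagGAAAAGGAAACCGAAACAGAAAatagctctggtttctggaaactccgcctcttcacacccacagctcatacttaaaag

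The element was present in 12 of the 28 interferon-response genes with a promoter in the table (42.9%), against 2.98% of all 32851 promoters and 3.04% of those of the 10384 tested genes that have one. All 12 genes with the element were lower at 4 d, with a median of -0.55, and 12 of the 16 without it were lower, with a median of -0.42. A match is a description of these letters and not a site shown to be bound.

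**Figure D2:**
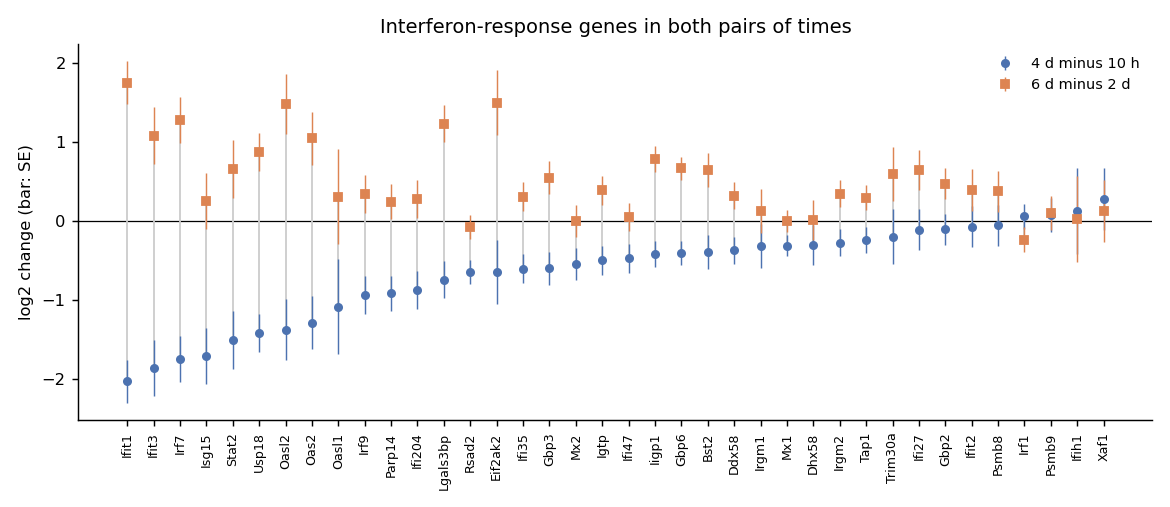
Log2 change with its SE for each of the 38 interferon-response genes tested, 4 d minus 10 h (blue circles) and 6 d minus 2 d (orange squares). Most blue points lie under 0 (34 of 38) and most orange points above it (34 of 38).

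In the immediate early and the glucocorticoid lists more genes were also lower than higher at 4 d. Immediate early genes encode transcription factors and secreted proteins that cells switch on within an hour of a stimulus. Of 33 listed, 28 were tested, 24 were lower and 4 higher, with a median of -0.49, against 48.7% lower over all genes. None passed with all arrays, and 5 were 2-fold apart and lower, against 1.16% of all genes: Fos, Atf3, Maff, Ccn1 and Ccn2. Atf3, a stress-induced transcription factor, read 1583 and 1662 at 10 h and 679 and 594 at 4 d (-1.35 ± 0.20, limma adjusted p = 0.0865). Junb, a subunit of AP-1, read 1536 and 1332, then 751 and 718 (-0.96 ± 0.17, limma adjusted p = 0.152). Ccn2, the matrix protein also called connective tissue growth factor, read 8694 and 10715, then 4425 and 2126 (-1.65 ± 0.30, limma adjusted p = 0.17). Ier2, another immediate early gene, read 3012 and 3319, then 1817 and 1735. In all 4 the times did not overlap. Of the 28 tested, 19 lay apart and lower at 4 d and 0 apart and higher, against 19.0% and 18.0% of all genes. Without the A array labelled 4 d 1a, Atf3 (-1.45, limma adjusted p = 0.0457) and Ccn2 (-2.18, limma adjusted p = 0.0276) passed. The A members had medians of -0.74 with 4 d 1a alone and -0.53 with 4 d 1b alone, and the 8 members on B and C had a median of -0.21.

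Of 30 glucocorticoid-response genes 27 were tested, 17 lower and 10 higher, with a median of -0.41, against 48.7% lower over all genes. None passed with all arrays, and 6 were 2-fold apart and lower, against 1.16% of all genes: Per1, Mt1, Mt2, Cebpd, Cebpb and Map3k6. The metallothioneins, small metal-binding proteins that glucocorticoids and zinc induce, were among them. Mt1 read 6368 and 5888 at 10 h and 2088 and 1150.1 at 4 d (-1.98 ± 0.28, limma adjusted p = 0.0823), although a second probe set for Mt1, of a kind that can cross-hybridise, gave -0.13 ± 0.17. Mt2 read 9165 and 13105, then 3717 and 2007 (-2.0 ± 0.30, limma adjusted p = 0.0979). Cebpb, partner of Cebpd, read 5015 and 4148, then 2595 and 1979 (-1.01 ± 0.17, limma adjusted p = 0.145). Each of these was lower on both 4 d arrays than on either 10 h array. Of the 27 tested, 14 lay apart and lower at 4 d and 2 apart and higher, against 19.0% and 18.0% of all genes. Without the A array labelled 4 d 1a, Cebpd, Mt1 (-2.41, limma adjusted p = 0.0331) and Mt2 (-2.45, limma adjusted p = 0.0434) passed.

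The inducible Hsp70 genes, the classical heat shock chaperones, were lower at 4 d. Hspa1b read 2457 and 1997 at 10 h and 575 and 559 at 4 d (-1.97 ± 0.22, limma adjusted p = 0.054), and Hspa1a read 2061 and 1931, then 649.5 and 462 (-1.86 ± 0.32, limma adjusted p = 0.152). These neighbouring genes are near-identical copies, so it is uncertain which of them the probe sets measured. Hspa1b passed without the A array labelled 4 d 1a (-1.99, limma adjusted p = 0.0384). The list of 35 tested heat shock proteins and chaperones as a whole was split, 18 lower and 16 higher, with a median of -0.03, and its median was 0.07 without 4 d 1b.

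**Figure D3:**
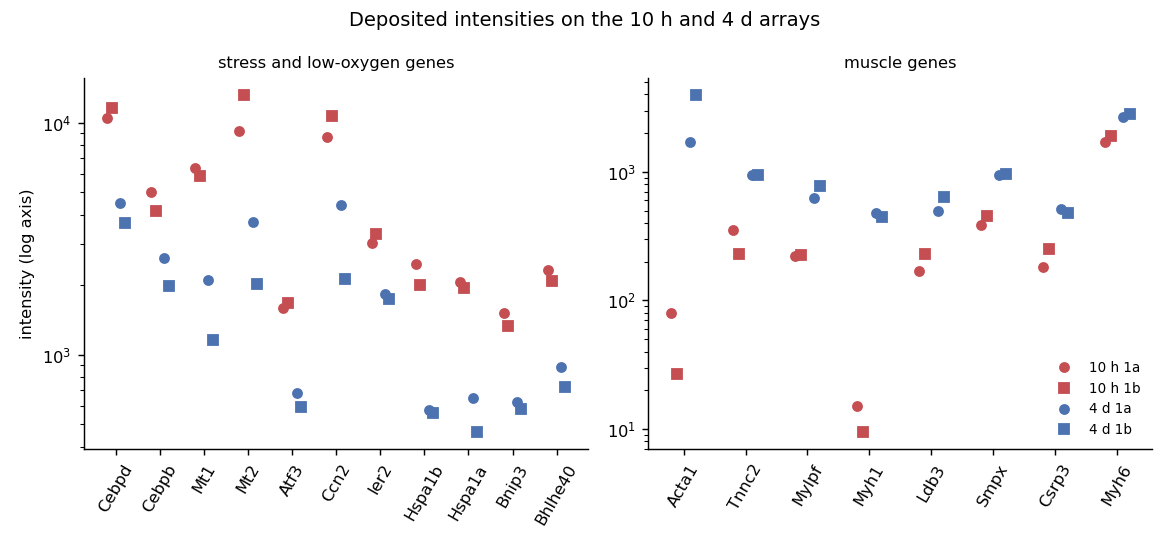
Deposited intensities (log axis) of stress and low-oxygen genes (left) and of muscle genes (right) on the 10 h arrays (red) and the 4 d arrays (blue), with circles for 1a and squares for 1b. The genes are a selection, in which the 4 d points lie below the 10 h points on the left and above them on the right. Vegfa and Ldha, whose 4 d arrays lay on either side of 10 h, are not shown. Also left out are 5 cardiac and 2 skeletal muscle genes that lay apart and lower at 4 d.

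More targets of HIF were lower than higher at 4 d, and the changes of Vegfa and Ldha were not resolved. Of 50 listed genes 43 were tested, 28 lower and 14 higher, with a median of -0.20, against 48.7% lower over all genes. Ankrd37 passed (0.0383% of all genes did), and 4 genes were 2-fold apart and lower, against 1.16% of all genes: Ankrd37, Bnip3, Bhlhe40 and Edn1. On the other side, the transferrin receptor gene Tfrc read 1316 and 1204 at 10 h and 2368 and 2028 at 4 d (0.80 ± 0.28, limma adjusted p = 0.496). Bnip3, a receptor for mitophagy, read 1512 and 1324 at 10 h and 622 and 580.3 at 4 d (-1.24 ± 0.25, limma adjusted p = 0.199). Bhlhe40, a repressor that links low oxygen to the clock, read 2317 and 2068, then 886 and 726 (-1.45 ± 0.19, limma adjusted p = 0.0681). In both genes each 10 h array read more than 2 times either 4 d array. The growth factor Vegfa read 2894 and 2586 at 10 h and 4160.0 and 1667 at 4 d (-0.06 ± 0.36, limma adjusted p = 1), so the 4 d arrays lay on either side of the 10 h pair, and its change was 0.60 without 4 d 1b. Ldha of glycolysis read 6649 and 6852, then 7106 and 3515, and its change of -0.43 ± 0.28 became 0.07 without 4 d 1b. The glucose transporter gene Slc2a1 read 318 and 272 at 10 h and was under the floor at 4 d (157 and 133), so its difference is only bounded. Of the oxygen-regulated subunits themselves, Hif1a gave -0.04 ± 0.18 (5241 and 5098, then 4915 and 5152). Epas1, which encodes HIF-2 alpha of endothelium, read 9417 and 19736, then 18279 and 20134, and its change of 0.49 ± 0.42 was -0.04 without 10 h 1a. The median of the A members was -0.08 with 4 d 1a alone and -0.32 with 4 d 1b alone, and that of the 12 members on B and C was -0.29. The median of the list was -0.09 without 4 d 1b and -0.32 without 4 d 1a. Edn1 and Lox, which cross-links collagen and elastin, passed as well without the A array labelled 4 d 1a.

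The promoters of Ankrd37 and Bnip3 are shown since these were the HIF targets with a match whose times lay 2-fold apart. They are written as above, with the core of the hypoxia response element, ACGTG, searched on both strands and set in capitals (CACGT where the match is on the other strand, which overlaps its partner in Bnip3). Ankrd37 lies at chr8:45999851-46000100 and Bnip3 at chr7:138909507-138909756, both on the minus strand of GRCm38.p6.
Ankrd37: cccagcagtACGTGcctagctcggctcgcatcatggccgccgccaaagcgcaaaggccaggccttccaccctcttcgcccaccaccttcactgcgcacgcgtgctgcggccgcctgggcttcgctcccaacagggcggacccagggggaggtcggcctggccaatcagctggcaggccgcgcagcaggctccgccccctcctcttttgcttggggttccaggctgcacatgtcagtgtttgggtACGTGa
Bnip3: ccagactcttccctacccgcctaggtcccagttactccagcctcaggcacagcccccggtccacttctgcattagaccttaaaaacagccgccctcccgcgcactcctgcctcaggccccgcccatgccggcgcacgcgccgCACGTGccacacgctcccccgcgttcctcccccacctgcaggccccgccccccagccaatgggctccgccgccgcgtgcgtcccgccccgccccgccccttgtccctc

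The ACGTG core was present in 23 of the 36 HIF targets with a promoter in the table (63.9%), against 16.6% of all promoters and 23.8% of those of tested genes. The median changes with and without it were -0.07 over 23 genes (14 lower) and -0.19 over 13 genes (8 lower).

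Circadian clock genes had a lower median on the A arrays and a median near 0 on the others. Of 23 tested, 15 were lower and 8 higher, with a median of -0.16, or -0.08 without 4 d 1a, and none passed. Tef, a clock output factor, read 4290.3 and 3719.9 at 10 h and 1809.7 and 1931 at 4 d (-1.10 ± 0.19, limma adjusted p = 0.145). Cry1, a clock repressor, read 1327 and 1264, then 867 and 691 (-0.74 ± 0.19, limma adjusted p = 0.315). Per1 read 1542 and 1529, then 423 and 1027. Dbp, chosen here after its values were seen, read 908 and 875 at 10 h and 222 and 1450.3 at 4 d, so that the 4 d arrays lay on either side of 10 h. The A members had medians of -0.99 with 4 d 1a alone and -0.38 with 4 d 1b alone, and the 11 members on B and C a median of -0.02. The hour of day at which the lungs were taken is not in the labels.

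Vasoactive genes of the pulmonary circulation were mixed. Of 32 tested, 22 were higher and 9 lower, with a median of 0.04, and none passed with all arrays. Edn1, the vasoconstrictor endothelin-1, read 3369.5 and 3219.7 at 10 h and 2374 and 1058 at 4 d (-1.06 ± 0.32, limma adjusted p = 0.419), and its second A probe set gave -0.98 ± 0.20. Ace, which makes angiotensin II, read 4433 and 5339, then 3067 and 2735 (-0.75 ± 0.15, limma adjusted p = 0.183). Npr3, the clearance receptor of natriuretic peptides, read 254 and 234 at 10 h and 426 and 929 at 4 d (1.36 ± 0.35, limma adjusted p = 0.322). The apelin receptor gene Aplnr read 1945 and 1979.9, then 3685 and 2797 (0.71 ± 0.23, limma adjusted p = 0.465). Each of these 4 genes had its times apart on all arrays. Of the 32 tested, 8 lay apart and higher at 4 d and 5 apart and lower, against 18.0% and 19.0% of all genes. Without the A array labelled 4 d 1a, which leaves 4 d 1b alone, the change was -1.64 for Edn1 and 1.92 for Npr3. The endothelin receptor gene Ednrb was under the floor at 10 h (137 and 229) and on the array labelled 4 d 1a (83.6). It read 406 on 4 d 1b, so its difference rests on that array and on values set to the floor. Nitric oxide synthase of endothelium, Nos3, read 483 and 242 at 10 h and was under the floor at 4 d, and prostacyclin synthase, Ptgis, gave -0.46 ± 0.16.

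In the BMP and TGF-beta pathway, whose receptor BMPR2 is the main gene of heritable pulmonary hypertension, 24 of 37 tested genes were lower and 13 higher, with a median of -0.11, and Fst alone passed. The BMP target genes Id3 (3728 and 3975 at 10 h, 2397 and 2676 at 4 d, -0.60 ± 0.14, limma adjusted p = 0.274) and Id1 (2166 and 1872, then 1938 and 779.9) and the inhibitor Smad6 (-0.49 ± 0.24) did not pass. The ligand Tgfb1 read 684 and 589.7, then 372 and 306 (-0.91 ± 0.35, limma adjusted p = 0.546). Bmpr2 read 12107 and 21045 at 10 h and 21989.5 and 22924 at 4 d, where the low value belongs to 10 h 1a, the sample compressed at its bright end.

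Structural genes of remodelling showed no difference that passed with all arrays. Of the model genes, Col1a1 gave 0.08 ± 0.30, Col3a1 0.65 ± 0.27, elastin (Eln) 0.45 ± 0.32, tenascin C (Tnc) -0.24 ± 0.46 and periostin (Postn) 0.42 ± 0.24. On the array labelled 4 d 1a Col3a1 read 7252 and on 4 d 1b 3699, against 3342 and 3262 at 10 h, and Eln read 12249.7 and 7066, against 6535 and 7079. In both genes, as in Postn (8923 and 5161, against 4769 and 5364), the array labelled 4 d 1a was the one above 10 h. In the fit without the A array labelled 4 d 1a, Col11a1 (0.89, limma adjusted p = 0.0285; 94.7 and 251 at 10 h, 452 on 4 d 1b), Lox (-1.87, limma adjusted p = 0.0337; 1589 and 1685 at 10 h, 447 on 4 d 1b) and the smooth muscle gene Smtn (-1.34, limma adjusted p = 0.0276; 602 and 591 at 10 h, 101 on 4 d 1b) passed. The array labelled 4 d 1a read 25 for Col11a1, 1569 for Lox and 451 for Smtn. Without 4 d 1a Col1a1 gave -0.42, and without 4 d 1b Tnc gave 0.53. The smooth muscle genes Acta2 (-0.37 ± 0.21) and Tagln (-0.54 ± 0.29) did not pass, and of 24 smooth muscle markers 15 were lower and 9 higher, with a median of -0.14. Lama5 of basement membranes read 2319.6 and 2098, then 1226 and 1327 (-0.79 ± 0.14, limma adjusted p = 0.155), and Has1, which makes hyaluronan, read 659 and 532 and then lay under the floor. The other model genes that could be tested, Pdgfb, Timp1, Retnla, Ccl2, Cdkn1a, Hmox1 and Top2a, had changes from -0.86 to 0.59 and adjusted p values of 0.183 and above. Ednra and Spp1 were not tested.

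Muscle genes were higher at 4 d, those of skeletal muscle most. Of 23 skeletal muscle genes tested, 20 were higher and 3 lower, with a median of 0.37. Acta1 passed, and 5 were 2-fold apart and higher, against 0.851% of all genes: Acta1, Mylpf, Myl1, Tnnc2 and Atp2a1. Tnnc2 read 353 and 231 at 10 h and 941 and 947 at 4 d (1.71 ± 0.30, limma adjusted p = 0.155). Mylpf, a fast myosin light chain, was under the floor at 10 h (222 and 226) and read 625 and 771 at 4 d, at least 1.56 higher on the log2 scale (limma adjusted p = 0.161). Myh1, a fast myosin heavy chain, read 15 and 9.39 at 10 h and 477 and 442 at 4 d. The 4 d arrays were above both 10 h arrays in each of these. Of the 23 tested, 11 lay apart and higher at 4 d and 2 apart and lower, against 18.0% and 19.0% of all genes. The summed intensity of the 18 skeletal muscle genes on the A arrays was 5479 and 5019 at 10 h and 9789 and 15209 at 4 d, and 8 and 11 of the 18 were at the floor on the 10 h arrays against 4 and 2 on the 4 d arrays. The A members had a median of 0.32 with 4 d 1a alone and 0.80 with 4 d 1b alone, and the 5 on B and C a median of 0.23. Without 4 d 1a the median of the list was 0.77, and without the A array labelled 4 d 1a Actn3 and Myl1 passed beside Acta1.

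Of 35 cardiac muscle genes, 27 were higher and 7 lower, with a median of 0.33, which was 0.20 without 10 h 1a, and none passed with all arrays. Without the A array labelled 4 d 1a, Cox8b gave 0.87. Ldb3 is on the B arrays, so its change was the same in that fit. The strongest in the test were Ldb3 (168 and 228 at 10 h, under the floor, then 492 and 636), Smpx (388 and 457, then 949 and 969.8, 1.19 ± 0.26) and Csrp3, a Z-disc protein (181 and 252, then 512 and 479, 1.02 ± 0.22). Myh6, the myosin heavy chain of atrial and mouse ventricular muscle, read 1712 and 1884 at 10 h and 2678 and 2819 at 4 d (0.61 ± 0.17, limma adjusted p = 0.345). The summed cardiac intensity on the A arrays was 37723 and 40936 at 10 h and 43442 and 46040 at 4 d. Muscle markers thus differed between 10 h and 4 d, and their part in the rise of Acta1 was not tested. Between 2 d and 6 d the skeletal list was split, 10 higher and 10 lower at 6 d, and its median change was 0. The cardiac list leaned to the higher side there, 21 higher and 12 lower, and its median change was 0.19. In whole tissue, more cells of a type and more RNA per cell cannot be told apart.

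The higher levels of cell division genes at 4 d rested mostly on the A array labelled 4 d 1a. Of 51 mitosis and G2/M genes tested, 39 were higher and 8 lower, with a median of 0.38, and of 41 DNA replication genes 29 were higher and 12 lower, with a median of 0.22. None passed in either list. Smc2, a condensin subunit, was under the floor at 10 h (199 and 212) and read 618 and 427 at 4 d. Mcm3 of the replicative helicase read 303 and 271, then 679 and 507 (1.03 ± 0.26, limma adjusted p = 0.311). In Mki67, the proliferation marker, the 4 d arrays disagreed: 276 and 252 at 10 h, 1084 on 4 d 1a and 89.2 on 4 d 1b. The change of Mki67 was 0.94 ± 0.58, and -0.16 without 4 d 1a. The mitosis genes on the A arrays had a median of 0.96 with 4 d 1a alone and 0.10 with 4 d 1b alone, and the 16 on B and C had a median of 0.00. For DNA replication these medians were 0.44, 0.13 and, over 9 genes, -0.11.

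Among lung cell types, alveolar type 2 genes were higher and ciliated cell genes lower at 4 d, and neither list had a gene that passed. Of 27 type 2 genes 22 were higher and 5 lower, with a median of 0.38. Egfl6, a secreted protein, read 12602 and 11569.8 at 10 h and 38141 and 27877 at 4 d (1.43 ± 0.30, limma adjusted p = 0.195). Abca3, the lipid transporter of lamellar bodies, read 7157 and 8819, then 11674 and 11536 (0.55 ± 0.19, limma adjusted p = 0.493), and Etv5, a type 2 transcription factor, read 3429 and 3133, then 4976 and 4309. In these 3 genes the times did not overlap. Of the 27 tested, 12 lay apart and higher at 4 d and 0 apart and lower, against 18.0% and 19.0% of all genes. Surfactant protein C (Sftpc) read 3316 on 10 h 1a, 10409 on 10 h 1b and 13211 and 10121 at 4 d, so only 10 h 1a was low. Without 10 h 1a the median of the type 2 list was 0.10.

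Of 33 ciliated cell genes 21 were lower and 12 higher, with a median of -0.23. Ak7, a kinase of motile cilia, read 2342 and 2139 at 10 h and 752 and 1388 at 4 d (-1.13 ± 0.29, limma adjusted p = 0.281), and Capsl read 482 and 583 and then lay under the floor. Without 10 h 1a the median of this list was -0.02, so the group difference rested on that sample. Endothelial genes gave a median of -0.01, 18 lower and 16 higher of 34. Sox17, an arterial transcription factor, was the endothelial gene of smallest p: 6293 and 6217 at 10 h, 3079 and 1542 at 4 d (-1.52 ± 0.28, limma adjusted p = 0.17). It passed without the A array labelled 4 d 1a.

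Chemokine and cytokine genes had 17 lower and 6 higher of 25 tested, with a median of -0.18, which was -0.09 without 10 h 1a, and none past the threshold with all arrays. With the A array labelled 4 d 1a left out, 1 member passed in each direction: the neutrophil attractant Cxcl5, under the floor at 10 h (21.7 and 127) and at 269 and 518 at 4 d, was higher (1.13, limma adjusted p = 0.0258), and Cxcl1 was lower (-0.76, limma adjusted p = 0.0396). The dendritic cell chemokine Ccl17 read 555 and 895 at 10 h and was under the floor at 4 d (98.2 and 42.7), at least 1.58 lower on the log2 scale (limma adjusted p = 0.281). With all arrays Cxcl1 (396 and 401) and the monocyte attractant Ccl2 (413 and 447) were dim at 10 h and under the floor at 4 d. Of the resistin-like and alternative activation genes, 8 of 11 were lower, with a median of -0.27. The 54 respiratory chain genes gave a median of 0.04 and the 32 antioxidant enzymes, where Mgst3 passed, a median of -0.04.

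**Figure D4:**
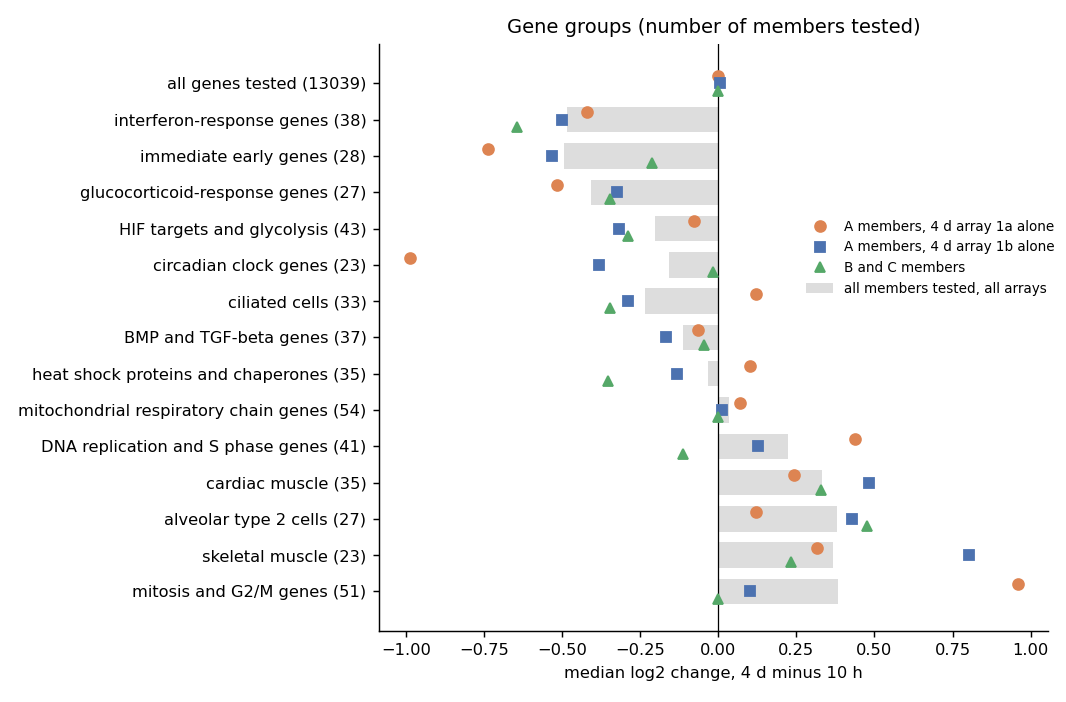
Median log2 change, 4 d minus 10 h, of 14 gene groups and of all genes tested (grey bars, number of members in brackets), with the median of the A members for each 4 d array alone (circles and squares) and of the B and C members (triangles). The interferon markers lie together left of 0, while for mitosis and DNA replication the circle of 4 d 1a lies far to the right of the others.

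The same step from an earlier to a later time was available in the 2 d and 6 d arrays, which share no array with 10 h and 4 d. There 6 d minus 2 d gave 16 probe sets past the threshold, or 0.0620%. The difference between the 2 changes, tested as an interaction in the same limma fit, passed for 1 probe set of 25801 (0.00388%), the same probe set of Ntrk2, which read 4009.5 and 3986 at 2 d and 5522 and 5855 at 6 d. Its change was 0.51 ± 0.20 there against -2.92 ± 0.20 here, a difference of -3.43 ± 0.29 (limma adjusted p = 0.0186). Its low values at 4 d were thus seen at no other time. The difference no longer passed when any 1 sample of 10 h or 4 d was left out, nor without 2 d 1b, 6 d 1a or 6 d 1b (smallest limma adjusted p over all probe sets then 0.0553 to 0.364), nor with the letters 1a and 1b as a replicate block (0.0525). Times, deposit runs and the 3' to 5' ratios differ between the pairs of groups, and the ratios also differ between 2 d and 6 d. Their part in any difference was not tested.

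Interferon-response genes differed in sign between the pairs. From 2 d to 6 d, 34 of the 38 were higher and 2 lower, with a median of 0.36, and 31 of the 34 that were lower at 4 d than at 10 h were higher at 6 d than at 2 d. Ifit1 read 147 and 255 at 2 d and 1003 and 686 at 6 d, and the difference of its changes was -3.79 ± 0.39 (limma adjusted p = 0.0593). For Irf7 (237 and 331, then 678 and 686) it was -3.04 ± 0.41 (limma adjusted p = 0.0954), and for Oasl2 (1609 and 1199.5, then 4044 and 3735) it was -2.86 ± 0.54. An unadjusted p under 0.05 for the difference was reached by 23 of the 38, all in this direction, against 879 of 13039 genes in this direction, and none passed.

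The other genes of smallest p for the difference between the pairs did not pass either. On the lower side they were Ankrd37 (-2.74, limma adjusted p = 0.0593), Zbtb16 (-2.05), Mgst3 (-1.85) and Lyz1 (-3.52), with adjusted p values from 0.0593 to 0.0933. Lyz1, a lysozyme gene of the type 2 cell list, read 7949.6 and 6315 at 10 h and 12860.3 and 10212 at 4 d, and 2489 and 1140.4 at 2 d and 33033 and 29448 at 6 d, so its difference came from 2 d and 6 d. On the higher side were Ppp1ca (1.56), Fut9 (1.11), Acta1 (3.29), Trub2 (1.34) and Slc16a9 (1.87), with adjusted p values from 0.0958 to 0.12. Fut9 lay under the floor on all 10 h and 4 d arrays. By contrast, type 2 genes had a median of 0.37 in the 6 d minus 2 d pair and 0.38 here, or 0.10 here without 10 h 1a, and Egfl6 gave 1.34 ± 0.30 there and 1.43 ± 0.30 here, with a difference of 0.09 ± 0.43 between them.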

How the data were processed

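Total RNA of mouse lung was measured on 3 types of array, with 2 samples per group. The deposited values are linear intensities, 1 per probe set and array, already scaled by the authors to a common mean, as the values show; the software that summarised the probes is not given in the sources used here. Samples were grouped by title. 1 array, titled Norm 1a on type A but standing in the table of type B, was not used, which left 29.

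After flooring at the 40th percentile of the array type, log2 intensities were tested for every probe set that exceeded its floor on 2 arrays or more, control probe sets aside. For each type, limma 3.58.1 in R 4.3.3 fitted 5 group means (lmFit, eBayes with trend), so all groups lent their spread, and 4 d minus 10 h and its difference from 6 d minus 2 d were two-sided contrasts, adjusted by Benjamini-Hochberg over the 3 types together at 0.05. The number of arrays limits the precision.

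Symbols came from the platform annotation supplied; on A 10855 probe sets had 1 symbol, 396 several and 1237 none, on B 10603, 178 and 1696, and on C 7739, 150 and 4045, and none was named from several. A gene is represented by 1 probe set, plain before suffixed, then the brightest. Named are the 10 genes of smallest p each way, up to 4 members of smallest p per list and others that passed, 30 model genes, and 5 genes each way for the difference of changes. Other genes were chosen after their values were seen. The 42 lists, the members and the tests were chosen with earlier results of these data known. "2-fold apart" means a mean difference of 2-fold or more with both arrays of one time beyond both of the other. The alternatives covered the groups in the fit, scaling, floor, filter, trend, adjustment, block, probe set choice and left-out arrays.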

Additional observations from a re-analysis of the deposited data

Results flagged for a closer look

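For Ntrk2, the change from 10 h to 4 d differed from the change from 2 d to 6 d by a test of the difference itself: -3.43 ± 0.29 on the log2 scale (SE, 2 samples a group, limma adjusted p = 0.0186) on the B probe set that passed. Both 4 d arrays (554 and 407) lay under all 8 other B arrays, the lowest of which, a Norm array, read 3194. The gene's 3 other probe sets gave differences of -0.03, -0.56 and -1.08, none of which passed. Without any 1 of the samples of 10 h or 4 d, or without 2 d 1b, 6 d 1a or 6 d 1b, no probe set passed for this difference, and without 2 d 1a 4 passed. None passed with 1a and 1b as a replicate block (smallest limma adjusted p = 0.0525). What the Norm samples are is uncertain.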

How the results depend on the processing

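The count of 6 probe sets past the threshold (2 higher, 4 lower at 4 d) depended on the processing, and so did the 1 probe set for the difference from 6 d minus 2 d. It was 0 (0 and 0) with only the 10 h and 4 d arrays, 15 (13 lower) without Norm in the fit, 13 (10 lower) with quantile normalization, 50 (15 and 35) without the filter, 21 (9 and 12) with 5 arrays above the floor and 12 (4 and 8) with adjustment within a type. It was 195 (129 and 66) without the A array labelled 4 d 1a and 5 (2 lower) without that of 4 d 1b, an alternative chosen after seeing the data, as was the use of B and C alone. The count for the difference was 7, 70, 17 and 4 without Norm, without the filter, with 5 arrays and within a type, 3 with median scaling and 3 without trend, and 7 without either A array. Leaving out 1 sample gave 3 to 189 probe sets, 2 to 131 higher, 1 to 58 lower and 0 to 4 for the difference. The letters 1a and 1b did not pair the samples (correlations of -0.05, -0.16 and 0.06 on A, B and C); with them as a replicate block 4 probe sets passed, 2 of them lower, and 0 for the difference; Mgst3 (adjusted p = 0.0769) and Fst (0.0537) lost their calls. With a floor at the 20th percentile the count was 6, but Fst was not among them (0.22).

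Over 98 named genes and their alternatives, 1420 of 1543 values kept side and call, 25 lost the call, 64 gained it and 14 reversed. The reversed ones, none called, were Ednrb 0.00 and Vegfa 0.60, Ldha 0.074 and Tnc 0.53 without 4 d 1b or its A array, Col1a1 -0.42 and Mki67 -0.16 without 4 d 1a or its A array, Epas1 without 10 h 1a, and Dnajb4 0.00 by the median of its probe sets. Leaving out 1 sample of 10 h or 4 d gave these genes ranges of 0.00 to 0.78 (Ednrb), -0.71 to 0.60 (Vegfa), -0.94 to 0.074 (Ldha), -1.02 to 0.53 (Tnc), -0.42 to 0.58 (Col1a1), -0.16 to 2.04 (Mki67) and -0.041 to 1.03 (Epas1). Of 306 list medians 241 stayed within 1 SD and 7 reversed: chemokines 0.15, mitosis 0.00 and DNA replication -0.11 on B and C alone, heat shock proteins 0.074 and matricellular genes 0.025 without the A array of 4 d 1b. Leaving out 1 sample gave the last 2 lists -0.23 to 0.074 and -0.13 to 0.042. Median scaling moved the median of A genes from 0.01 to -0.09 and the interferon median to -0.61. The cause of these changes was not tested. Levels near the floor bound the size of changes.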

Other observations

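Further genes named by their lists, which passed no threshold with all arrays, showed differences between 10 h and 4 d. Jchain of plasma cells read 601 and 489 at 10 h and 2868 and 969 at 4 d, with Fcrla at 138 and 143, then 468 and 476, and of 20 B cell genes 13 were higher, with a median of 0.10. Angpt2, a destabiliser of vessels, read 352 and 282, then 580.4 and 655 (0.97 ± 0.25). The pericyte proteoglycan gene Cspg4 read 809 and 836, then 446 and 190.2 (-1.18 ± 0.24), and Cnn1 of smooth muscle read 2713 and 2851, then 1130.0 and 1427 (-1.13 ± 0.23). In all of these the times did not overlap. Over all genes 18.0% lay apart and higher at 4 d and 19.0% apart and lower.

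Car2, carbonic anhydrase of red cells and other tissues, read 1997 and 1719 at 10 h and 2965 and 3313 at 4 d (0.76 ± 0.14). The polo-like kinase gene Plk2 read 6143 and 5987, then 3774 and 1432 (-1.38 ± 0.38), and it passed without the A array labelled 4 d 1a.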
